A study of Mus musculus with 12 samples.

Results

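Potassium channel genes were examined in RNA sequencing of mouse cortex from KO and Het animals at Mir137, the gene of the microRNA miR-137, with WT as control. The genes were chosen by name: a row belonged to the set when its symbol was Kcn, letters and a final number, and when it reached at least 0.5 RPKM (reads scaled by transcript length and by library size) in any genotype. Of 23951 rows in the tables, 92 had such a name and 74 passed the level. The study asked what miR-137 does in neurodevelopment. Its 12 libraries, 4 for each genotype (miR-137 KO, miR-137/+ and wildtype in the labels), came from dissected cortex of C57BL/6 mice. The labels state neither age nor sex, nor how the allele was made. Mir137 itself is listed at 0 RPKM in KO, Het and WT, so the genotype labels have no check in its level.

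The authors pooled the libraries of a genotype into 1 RPKM value, so a value has no SD and read depth is unknown. Rose and fell are used only where the authors' deposited table has an adjusted p below 0.05. Whether the 4 libraries come from 4 mice is not stated, so these p-values measure only the spread between libraries, which may be technical. Log2 differences are taken on the log2(RPKM + 1) scale, where changes of low genes look smaller than they are. In bulk tissue, fewer cells of a type and less RNA per cell cannot be told apart.

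Potassium channels let potassium leave a neuron or glial cell and so set its resting voltage, end its action potentials and limit its firing rate. Voltage-gated (Kv) channels open on depolarization, inward rectifiers (Kir) hold the resting voltage, and tandem-pore (K2P) channels carry leak current. Calcium- or sodium-activated channels couple ion entry to repolarization, and auxiliary subunits alter how pores are trafficked and gated. In cortex and striatum, cell types differ in which members they use, so levels in bulk tissue also depend on which cells are present.

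The 74 genes comprised 34 Kv members, 13 Kir members, 9 K2P members, 7 of the calcium- or sodium-activated group and 11 auxiliary subunits. RPKM is scaled by length, so levels can be set side by side. Auxiliary subunits were the most abundant: Kcnab2, a cytosolic partner of Kv channels, had 88.8 RPKM in KO, 94.7 in Het and 118 in WT. Kcnip2, a calcium-binding partner of A-type channels, had 83.8 RPKM in KO, 99.1 in Het and 89.98 in WT. The highest pore gene in KO and Het was Kcnk1, of a leak channel, with 47.3 RPKM in KO, 56.8 in Het and 45.9 in WT. The members just inside the limit were Kcnj5, Kcnh5 and Kcnj14, whose highest values were 0.522 RPKM in Het, 0.850 in Het and 0.877 in WT. Just outside were Kcnq1, Kcng3 and Kcnh6, whose highest values were 0.494 RPKM in KO, 0.484 in WT and 0.411 in WT. These Kcnj5, Kcnh5, Kcnj14, Kcnq1, Kcng3 and Kcnh6 values come from the tables against WT, and the same genotype's value in another table differed by at most 0.726% over the members.

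**Figure D1:**
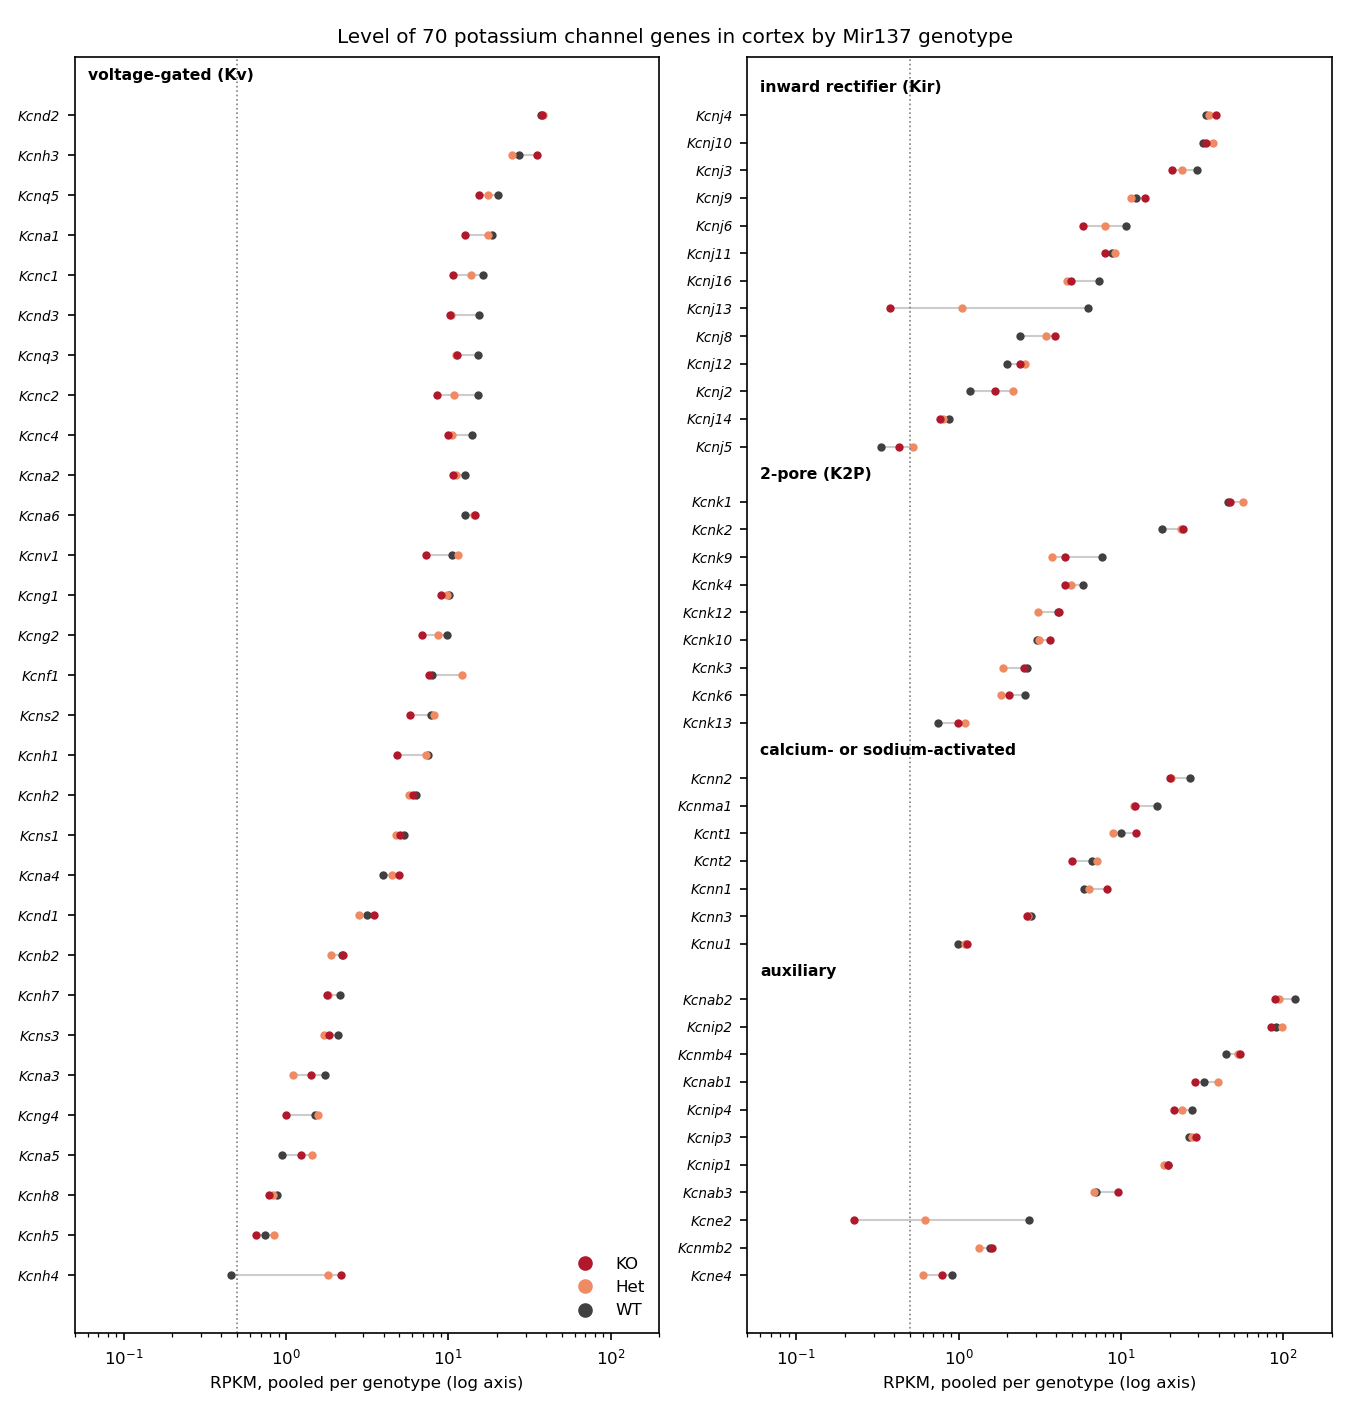
Level of 70 of the 74 potassium channel genes (rows, grouped by channel type) as RPKM on a log axis, 1 pooled value for KO, Het and WT. The dotted line marks 0.5 RPKM; Kcne2 and Kcnj13 lie far lower in KO and Het than in WT, and Kcnh4 far higher.

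More of these genes fell than rose in both mutant genotypes. In KO against WT, 21 of 74 members fell and 5 rose, and 72 members were tested. Of all 14059 genes tested in that comparison, 7.68% fell and 6.72% rose. In Het against WT, 9 members fell and 4 rose, beside 5.06% and 3.95% of all 14159 genes tested. In KO against Het, 7 members fell and 0 rose, beside 0.953% and 0.917% of all 14062 genes tested. At an unadjusted p below 0.05 in the authors' deposited table, 7 members were higher in KO than in Het and 13 were lower.

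As shares of the members, 28.4% fell in KO and 12.2% fell in Het, both above the share over all genes. The rises, 6.76% of members in KO and 5.41% in Het, were near the share over all genes. The median log2 difference of the members was -0.08 in KO and -0.09 in Het, where all genes of at least 0.5 RPKM had 0.00 and 0.01. Potassium channel genes have long transcripts, with a median of 4039 nt against 3334 nt for all genes of at least 0.5 RPKM. Among all genes tested with transcripts of at least 4039 nt, 10.6% fell in KO and 7.70% in Het, and among shorter ones 5.96% and 3.52%. In KO against Het, 1.03% of the longer and 0.949% of the shorter genes fell. The part of length in the members' falls was not tested.

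The same 8 genes fell in both mutants: Kcnc2, Kcnc4, Kcnd3, Kcnq3, Kcnj16, Kcnk9, Kcnma1 and Kcne2. Only Kcnh4 and Kcnk2 rose in both, and 0 members moved in opposite directions. A further 13 members fell in KO without passing the threshold in Het. These 2 comparisons share the WT libraries, so their overlap is not independent evidence. In all, 30 members passed the threshold in at least 1 of the 3 tables and 44 in none. With p-values adjusted over the 3 tables together, Kcnip4, Kcnn2 and Kcnt2 no longer passed in KO against WT, with adjusted p 0.0627, 0.0700 and 0.0610 computed from the authors' deposited table.

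**Figure D2:**
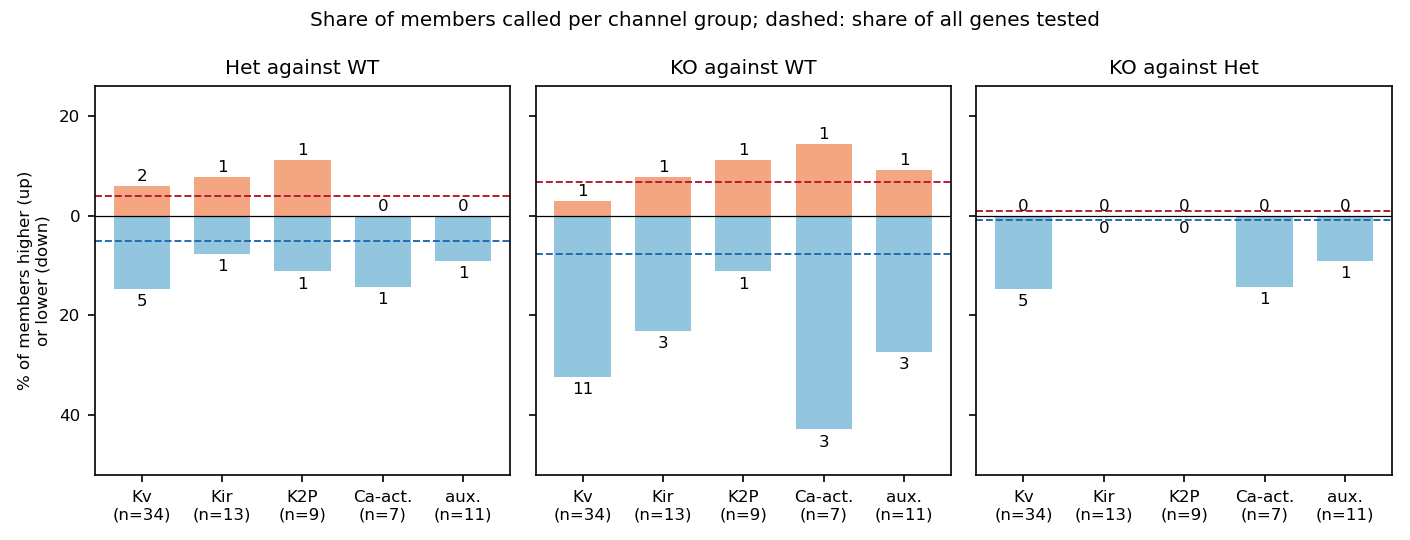
Percent of the members of each channel group that were higher (up) or lower (down) in each comparison, with the number of genes on each bar and the number of members under it. Dashed lines give the percent of all genes tested; in KO against WT the Kv bar reaches 11 of 34 members lower and that of the calcium- or sodium-activated group 3 of 7.

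miR-137 acts by pairing its seed, bases 2 to 8, with sites in the 3' UTR of messenger RNAs, which lowers their level or translation. Matches to the seed were therefore searched in the longest annotated 3' UTR of every member. The mature sequence is shown with its seed in capitals, from RefSeq on GRCm38.p6.
miR-137-3p (chr3:118433901-118433923, plus strand): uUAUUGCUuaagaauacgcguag

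A match was AGCAATAA (an 8mer), AGCAATA or GCAATAA, on the sense strand, each counted once as the longest form. Of the 74 members 17 held at least 1 match and 8 held an 8mer, or 23.0% and 10.8%. Over the 13354 genes of at least 0.5 RPKM with an annotated 3' UTR, the shares were 16.4% and 4.66%. The members' 3' UTRs were longer, with a median of 1832 nt against 1377 nt. A match is a description of letters and not evidence of binding. Kcna2 and Kcnb2 held the most, with 4 each, and passed the threshold in 0 of the 3 tables.

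The 17 genes with a match did not all move one way. In KO, Kcnab3 and Kcnj8 rose and 6 fell (Kcnc1, Kcnc2, Kcnj3, Kcnj6, Kcnq5 and Kcnv1). In Het, 0 rose and Kcnc2 alone fell. Of the 57 members without a match, 3 rose and 15 fell in KO, and 4 rose and 8 fell in Het. For each called gene 1 match, the longest, is shown, first for genes that rose in KO and then for those that fell. Kcnab3, Kcnj6 and Kcnv1 hold 2 matches each. Capitals mark the match shown, the other match of Kcnab3 stands in lower case within its window, and the windows are GENCODE M21 transcripts on GRCm38, a build other than that of the tables.
Kcnab3 (chr11:69332951-69332980, plus strand): cttcctggcaataaacctaaAGCAATAAag
Kcnj8 (chr6:142566105-142566134, minus strand): ctgttgataatcccatcgagAGCAATAAta
Kcnj6 (chr16:94824642-94824671, minus strand): ctcatctgggaggagagttaAGCAATAAga
Kcnv1 (chr15:45107355-45107384, minus strand): tatcttacaaactaccaagcAGCAATAAag
Kcnc2 (chr10:112464732-112464761, plus strand): cacatccctaccaaatgctgtAGCAATAgt
Kcnc1 (chr7:46429176-46429205, plus strand): gactgtagcagcagcagcagcAGCAATAca
Kcnq5 (chr1:21400688-21400717, minus strand): aaatgcatttcccaaaaggcaAGCAATAct
Kcnj3 (chr2:55595598-55595627, plus strand): atgtattatcacatcaagcatGCAATAAtg

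Kcnj6 and Kcnj8, whose 8mers start 352 and 348 nt into the 3' UTR, moved in opposite directions in KO. Kcnj6, of a G-protein-gated channel, stood at 5.85 RPKM in KO, 7.99 in Het and 10.8 in WT, and Kcnj8, of an ATP-sensitive channel, at 3.95 RPKM in KO, 3.45 in Het and 2.40 in WT.

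**Figure D3:**
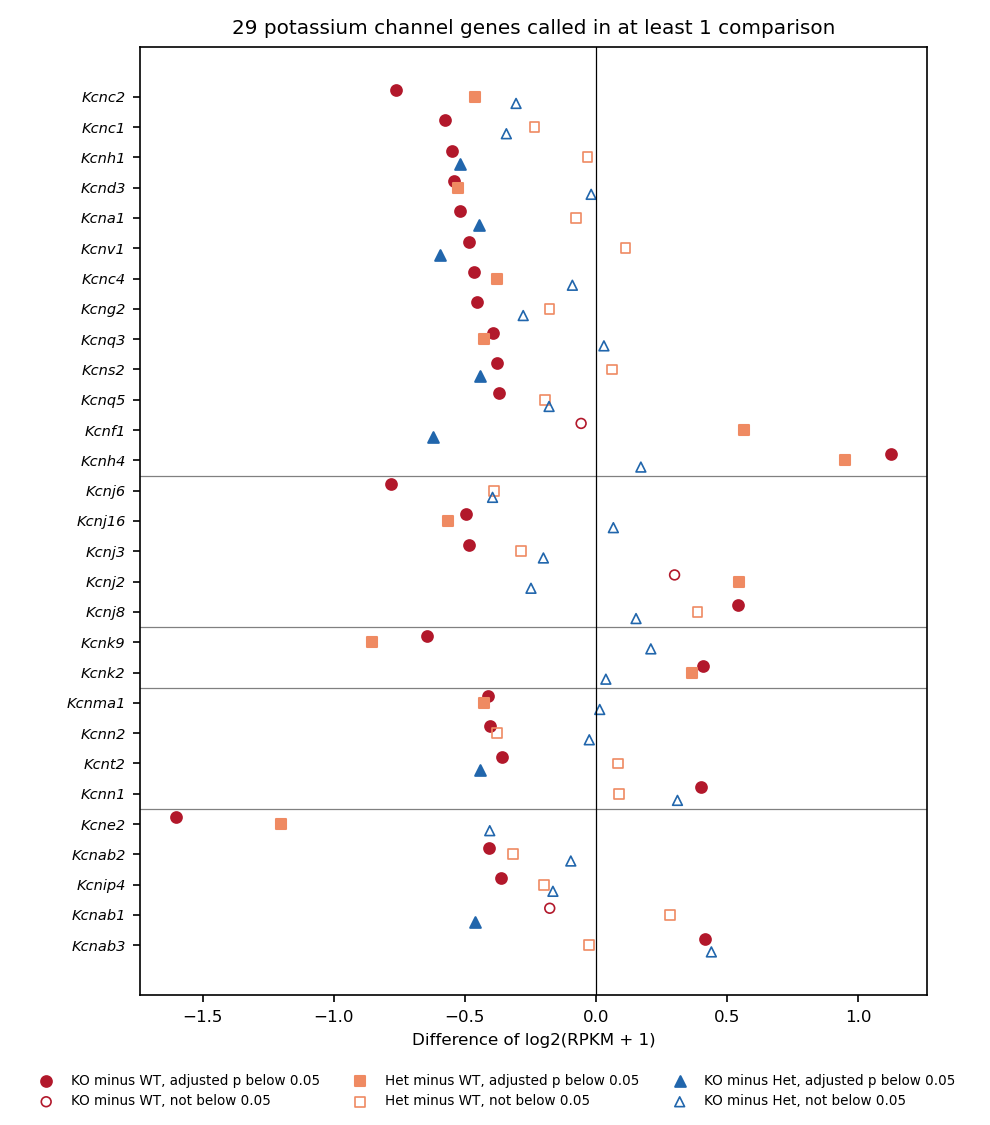
Difference of log2(RPKM + 1) for 29 of the 30 members called in at least 1 comparison, with circles for KO minus WT, squares for Het minus WT and triangles for KO minus Het. Filled symbols have an adjusted p below 0.05; lines part the Kv, Kir, K2P, calcium- or sodium-activated and auxiliary groups, from top to bottom.

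Where rose or fell stands with no adjusted p printed, that p was the smallest in the authors' deposited table, 0.000987 in KO and 0.00135 in Het. Values follow by channel type.

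Among Kv channels, the fast-repolarizing genes Kcnc1, Kcnc2 and Kcnc4 fell in KO, and Kcnc2 and Kcnc4 also fell in Het. These channels let fast-spiking interneurons, and other fast neurons, fire at high rates. Kcnc2 had 8.58 RPKM in KO, 10.8 in Het and 15.3 in WT, a log2 difference of -0.76 in KO and -0.46 in Het. Kcnc4 had 9.90 RPKM in KO, 10.6 in Het and 14.1 in WT (the authors' deposited table gives adjusted p 0.00506 in KO and 0.0288 in Het). Kcnc1 had 10.7 RPKM in KO, 13.8 in Het and 16.4 in WT; it fell in KO, and in Het the authors' deposited table gives adjusted p 0.208.

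Markers of cortical interneurons were mixed beside this. In KO 2 of 14 rose and 3 fell, and their summed level was 1125 RPKM in KO, 1078 in Het and 1128 in WT, with none listed at 0. This list shares Tac1 with the striatal list and Calb2 with the thalamic list. Pvalb, the calcium buffer of fast-spiking interneurons, was among the 3 that fell and was named here after its value was seen. It had 6.58 RPKM in KO against 10.9 in WT (the authors' deposited table gives adjusted p 0.00831). The 2 that rose are not named here, so Pvalb does not stand for the list. Gad1, a GABA-synthesizing enzyme also named after its value was seen, had 72.9 RPKM in KO against 80.7 in WT (the authors' deposited table gives adjusted p 0.472). The part of striatal cells in the level of Gad1 was not tested. Thalamic markers, from tissue below the cortex, fell in 4 of 9 measured members in KO and in 4 of 9 in Het. Their summed level was 120 RPKM in KO, 119 in Het and 149 in WT. The part of either cell type in the Kcnc falls was not tested.

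The M-current genes Kcnq3 and Kcnq5 fell in KO, and Kcnq3 also fell in Het. M-current channels close after muscarinic receptor activation and make neurons more excitable when they do. Kcnq3 had 11.4 RPKM in KO, 11.1 in Het and 15.3 in WT (the authors' deposited table gives adjusted p 0.0154 in KO and 0.00841 in Het). Kcnq5 had 15.4 RPKM in KO, 17.5 in Het and 20.2 in WT (the authors' deposited table gives adjusted p 0.0154 in KO and 0.297 in Het).

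A-type Kcnd channels inactivate rapidly and damp signals in dendrites. Kcnd3 fell in both mutants, with 10.3 RPKM in KO, 10.4 in Het and 15.4 in WT. Kcnd2, the most abundant of them, stayed near its WT level at 37.9 RPKM in KO, 38.2 in Het and 37.5 in WT (log2 differences 0.02 in KO and 0.03 in Het). Of the Kcna family, whose channels sit on axons and hold back repetitive firing, Kcna1 fell in KO, at 12.7 RPKM in KO, 17.7 in Het and 18.6 in WT. In Het the authors' deposited table gives adjusted p 0.816. Kcna6 is the next protein-coding gene to Kcna1 on chromosome 6 in RefSeq, and it had 14.6 RPKM in KO, 14.3 in Het and 12.6 in WT without passing in either comparison. Kcna6 shares 39.6% of its annotated exon bases with a transcript on the other strand, and the library kit does not record strand. The delayed rectifier gene Kcnb2 had 2.23 RPKM in KO, 1.89 in Het and 2.22 in WT and passed in none of the tables.

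The largest rise of any member was in Kcnh4, of the ether-a-go-go family. It had 2.18 RPKM in KO, 1.82 in Het and 0.459 in WT, a log2 difference of 1.12 in KO and 0.95 in Het. Kcnh4 thus met the level for inclusion only through the mutants. Kcnh1, the founding ether-a-go-go gene, fell in KO, at 4.82 RPKM in KO, 7.32 in Het and 7.51 in WT. Kcnh3, a highly expressed forebrain member, had 35.3 RPKM in KO, 24.8 in Het and 27.4 in WT (the authors' deposited table gives adjusted p 0.159 in KO and 0.743 in Het).

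Markers of striatal projection neurons rose beside Kcnh4: 20 of 21 in KO and 18 of 21 in Het. Their summed level was 813 RPKM in KO, 760 in Het and 205 in WT, with none listed at 0. Adora2a, Drd2 and the other markers are abundant in striatum, which lies under the cortex. The part of striatal cells in the rise of Kcnh4 was not tested. Cortical excitatory neuron markers were also read, without testing whether striatum makes them too, so they do not check the labelled tissue. All 16 were measured. Of these, 6 rose and 2 fell in KO, and 7 rose and 3 fell in Het. Their summed level was 1182 RPKM in KO, 1321 in Het and 1140.3 in WT, with none listed at 0. The highest in WT, Slc17a7, the vesicular glutamate transporter of cortical excitatory neurons, was among those that fell in KO and had 393 RPKM in KO, 484 in Het and 574 in WT (the authors' deposited table gives adjusted p 0.000987 in KO and 0.414 in Het). The next in WT, Pcp4, rose in both and had 477 RPKM in KO, 514 in Het and 264 in WT (the authors' deposited table gives adjusted p 0.000987 in KO and 0.00135 in Het).

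The silent Kv subunits do not form channels alone and modify those of the Kcnb family. All 8 members lay lower in KO than in WT, with a summed level of 44.5 RPKM in KO, 58.4 in Het and 55.1 in WT. Kcng2 had 6.92 RPKM in KO, 8.59 in Het and 9.83 in WT, Kcns2 5.79 RPKM in KO, 8.19 in Het and 7.81 in WT and Kcnv1 7.28 RPKM in KO, 11.5 in Het and 10.6 in WT. These 3 fell in KO (the authors' deposited table gives adjusted p 0.00446, 0.0192 and 0.00179) and did not pass in Het. Kcnf1 rose in Het, with 7.60 RPKM in KO, 12.2 in Het and 7.94 in WT, and its log2 difference in KO was -0.06 (the authors' deposited table gives adjusted p 0.828).

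Among Kir genes, 3 of 13 fell and 1 rose in KO, and 1 fell and 1 rose in Het. The channels of Kcnj3, Kcnj6 and Kcnj9 open when G-protein-coupled receptors such as the GABA-B receptor free their beta-gamma subunits. Kcnj6 fell in KO by 0.78 on the log2 scale (the authors' deposited table gives adjusted p 0.0541 in Het). Kcnj3 had 20.6 RPKM in KO, 23.8 in Het and 29.3 in WT (the authors' deposited table gives adjusted p 0.00560 in KO and 0.160 in Het). Of its annotated exon bases 31.1% are shared with a transcript on the other strand, and the library kit does not record strand. Kcnj9 had 14.2 RPKM in KO, 11.5 in Het and 12.4 in WT and passed in neither.

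Genes of the receptor side of this pathway were counted among the partners of Kir channels. Of 27 such partner genes, 3 rose and 1 fell in KO, and 3 rose and 0 fell in Het. Over all genes tested, 6.72% rose and 7.68% fell in KO, and 3.95% rose and 5.06% fell in Het. Gabbr2, a subunit of the GABA-B receptor, fell in KO, at 47.6 RPKM against 67.4 in WT (the authors' deposited table gives adjusted p 0.00254). Gng7, a G-protein gamma subunit abundant in striatum, had 155 RPKM in KO, 139 in Het and 79.1 in WT and rose in both. Rgs6, which speeds the shutdown of G-proteins, had 7.95 RPKM in KO, 8.37 in Het and 5.66 in WT (the authors' deposited table gives adjusted p 0.0276 in KO and 0.0171 in Het). Kctd8, an auxiliary subunit of the GABA-B receptor, rose in KO, at 4.98 RPKM against 3.26 in WT (the authors' deposited table gives adjusted p 0.00928). Aqp4, the water channel of astrocyte endfeet, rose in Het, at 67.8 RPKM against 47.2 in WT, and was lower in KO than in Het, at 48.4 RPKM against 68.2 (the authors' deposited table gives adjusted p 0.0184 for KO against Het).

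In Het, Kcnj16 fell and its neighbour Kcnj2 rose. Kcnj16 and Kcnj2 are adjacent protein-coding genes on chromosome 11 in RefSeq. Kcnj16, which pairs with Kcnj10 in glia, fell in both mutants, at 4.95 RPKM in KO, 4.68 in Het and 7.39 in WT (the authors' deposited table gives adjusted p 0.00179 in KO). Kcnj2, a strong rectifier, rose in Het and had 1.67 RPKM in KO, 2.17 in Het and 1.17 in WT (the authors' deposited table gives adjusted p 0.0590 in KO). Kcnj10, the main glial potassium channel, had 33.6 RPKM in KO, 37.1 in Het and 31.9 in WT and passed in neither comparison. Astrocyte markers had a summed level of 1335 RPKM in KO, 1322 in Het and 1493 in WT: of 13, 0 rose and 1 fell in KO, and 1 rose and 3 fell in Het. None was listed at 0, and their part in the fall of Kcnj16 was not tested. The marker that rose in Het was Aqp4, which also counts among the partners of Kir channels.

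Kcnj8 and Kcnj11 encode the pores of ATP-sensitive channels, which close when cellular ATP is high. Kcnj8, the pore used by pericytes, rose in KO (the authors' deposited table gives adjusted p 0.0108 in KO and 0.182 in Het). Markers of pericytes and smooth muscle rose in 2 of 12 measured members in KO and 1 of 11 in Het. Their summed level was 106 RPKM in KO, 115 in Het and 94.6 in WT, with none listed at 0, and their part in the rise of Kcnj8 was not tested. Kcnj11, the neuronal pore, had 8.04 RPKM in KO, 9.16 in Het and 8.81 in WT, and Kcnj4, a strong rectifier abundant in forebrain, had 38.8 RPKM in KO, 35.2 in Het and 33.3 in WT; both passed in neither.

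The widest differences of any member without a call were those of Kcnj13, a channel of the choroid plexus epithelium, named here after its values were seen. It had 0.380 RPKM in KO, 1.05 in Het and 6.32 in WT, with log2 differences of -2.41 in KO and -1.83 in Het (the authors' deposited table gives adjusted p 0.275 and 0.359). Of its annotated exon bases 49.1% are shared with Gigyf2 on the other strand. Kcne2, an auxiliary subunit also known from choroid plexus, had 0.226 RPKM in KO, 0.620 in Het and 2.72 in WT, the largest fall among called members. Choroid plexus markers fell in 12 of 15 measured members in KO and in 14 of 15 in Het. Their summed level was 118 RPKM in KO, 344 in Het and 2232 in WT, with none listed at 0. The part of choroid plexus tissue in the values of Kcne2 and Kcnj13 was not tested.

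**Figure D4:**
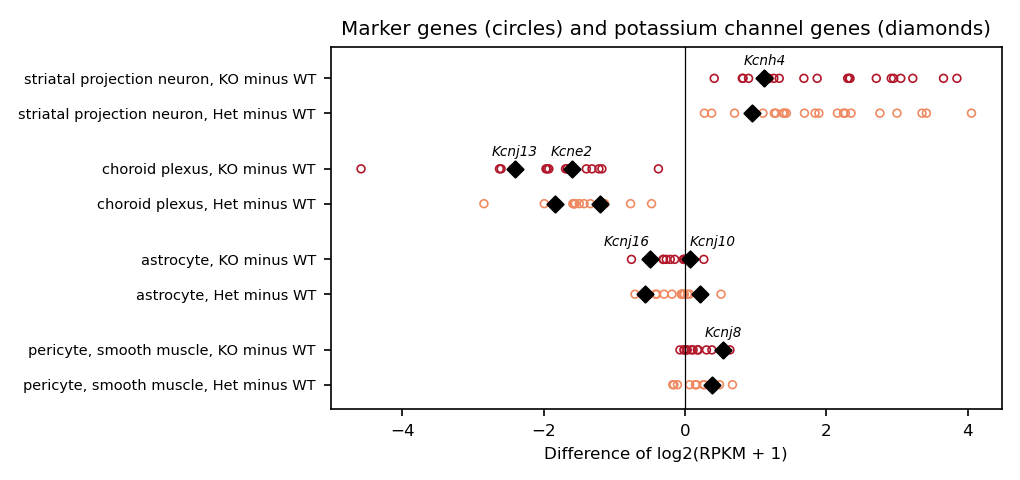
Difference of log2(RPKM + 1) against WT for marker genes of at least 0.5 RPKM (circles) and for potassium channel genes (black diamonds), KO above Het for each marker list. Kcnh4 lies within the range of striatal markers, Kcne2 and Kcnj13 within that of choroid plexus markers, Kcnj10 and Kcnj16 within that of astrocyte markers and Kcnj8 within that of pericyte and smooth muscle markers.

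The promoters of the members with the largest rise and the largest fall, Kcnh4 and Kcne2, are shown from 250 bases before to 50 after the start, from RefSeq on GRCm38.p6. Motifs searched on both strands were TGACG (the core of the cyclic AMP response element), TAATCC (the core bound by Otx2) and TATAAA (the TATA box). Of all 32851 promoters 20.8%, 7.06% and 13.6% held them. The first of 2 annotated starts of Kcne2 held this core 2 times, 222 and 118 bases before the start, shown in capitals. Neither promoter shown held another of these motifs. The Kcnh4 promoter had 68.7% G or C and 23 CpG, and the first Kcne2 promoter 53.0% and 9, where the medians of all promoters were 52.7% and 7.
Kcnh4 (chr11:100759729-100760028, minus strand): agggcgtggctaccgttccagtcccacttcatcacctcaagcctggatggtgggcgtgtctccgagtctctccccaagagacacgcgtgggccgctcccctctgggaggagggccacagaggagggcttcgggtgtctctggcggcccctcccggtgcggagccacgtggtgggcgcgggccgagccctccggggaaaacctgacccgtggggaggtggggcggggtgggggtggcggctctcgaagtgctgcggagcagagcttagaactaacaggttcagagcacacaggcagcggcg
Kcne2 (chr16:92292139-92292438, plus strand): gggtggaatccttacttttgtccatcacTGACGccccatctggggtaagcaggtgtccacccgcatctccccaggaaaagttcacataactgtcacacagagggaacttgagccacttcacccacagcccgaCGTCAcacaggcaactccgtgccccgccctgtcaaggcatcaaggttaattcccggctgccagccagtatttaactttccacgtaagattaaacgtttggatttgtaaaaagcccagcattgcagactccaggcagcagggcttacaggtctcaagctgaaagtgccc

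Of 9 K2P genes, 1 fell and 1 rose in each mutant. Kcnk9, an acid-sensitive leak channel whose maternal copy is the one expressed in brain, had 4.51 RPKM in KO, 3.76 in Het and 7.60 in WT (the authors' deposited table gives adjusted p 0.00616 in KO). Kcnk2, a leak channel opened by stretch and fatty acids, rose and had 24.1 RPKM in KO, 23.3 in Het and 17.9 in WT (the authors' deposited table gives adjusted p 0.0113 in KO and 0.0194 in Het). A transcript on the other strand shares 12.2% of its exon bases. Kcnk1, the most abundant K2P gene, had 47.3 RPKM in KO, 56.8 in Het and 45.9 in WT (the authors' deposited table gives adjusted p 0.892 in KO and 0.0682 in Het). Kcnk4 had 4.53 RPKM in KO, 4.93 in Het and 5.81 in WT and passed in neither. The summed level of the group was 93.8 RPKM in KO, 99.8 in Het and 90.4 in WT. Of 14 partner genes of K2P channels, 0 passed the threshold in any of the 3 tables.

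In the calcium- or sodium-activated group, 3 of 7 members fell and 1 rose in KO, and 1 fell and 0 rose in Het. Kcnma1, the pore of the big-conductance channel that ends action potentials and limits transmitter release, had 12.3 RPKM in KO, 12.1 in Het and 16.7 in WT. It fell in both (the authors' deposited table gives adjusted p 0.00323 in KO and 0.00244 in Het). The small-conductance genes, whose channels shape the slower after-hyperpolarization, gave 1 fall and 1 rise in KO. Kcnn2 fell and had 20.04 RPKM in KO, 20.4 in Het and 26.8 in WT (the authors' deposited table gives adjusted p 0.0462 in KO and 0.0637 in Het). Kcnn1 rose and had 8.18 RPKM in KO, 6.38 in Het and 5.95 in WT (the authors' deposited table gives adjusted p 0.0150 in KO and 0.818 in Het). Kcnn3 had 2.64 RPKM in KO, 2.69 in Het and 2.79 in WT and passed in neither.

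Kcnt2 and Kcnt1 encode sodium-activated channels. Kcnt2 fell in KO, at 4.98 RPKM in KO, 7.13 in Het and 6.68 in WT (the authors' deposited table gives adjusted p 0.0400 in KO), and Kcnt1 had 12.5 RPKM in KO, 9.004 in Het and 9.97 in WT without passing. Of 19 measured partner genes of this group, 1 rose and 2 fell in each mutant. Among all genes tested, 6.72% rose and 7.68% fell in KO, and 3.95% rose and 5.06% fell in Het. Lrrc55, a gamma subunit of the big-conductance channel, had 8.07 RPKM in KO, 10.1 in Het and 5.53 in WT (the authors' deposited table gives adjusted p 0.00729 in KO). Its brain beta subunit Kcnmb4 had 54.5 RPKM in KO, 52.9 in Het and 44.5 in WT (the authors' deposited table gives adjusted p 0.200 in KO and 0.378 in Het). Kcnmb4 shares 20.85% of its exon bases with Kcnmb4os2 and 10.7% with Kcnmb4os1, both on the other strand. The calcium channel genes Cacna1b and Cacna1e, counted as partners, fell in both. Cacna1b had 16.01 RPKM in KO, 16.1 in Het and 20.5 in WT. For Cacna1b the authors' deposited table gives adjusted p 0.0303 in KO and 0.0279 in Het. Cacna1e had 16.4 RPKM in KO, 17.1 in Het and 21.6 in WT (the authors' deposited table gives adjusted p 0.0126 in KO and 0.0330 in Het).

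Auxiliary subunits fell in 3 of 11 members and rose in 1 in KO, and in Het Kcne2 alone passed. The Kcnab genes encode cytosolic subunits that bind Kcna pores. Kcnab2 fell in KO (the authors' deposited table gives adjusted p 0.00928 in KO and 0.0727 in Het). Kcnab3 rose in KO and had 9.65 RPKM in KO, 6.84 in Het and 6.99 in WT (the authors' deposited table gives adjusted p 0.0218 in KO and 0.963 in Het). Kcnab1 passed against WT in neither, at 28.7 RPKM in KO, 39.9 in Het and 32.6 in WT. Of the Kcnip genes, whose calcium-binding proteins escort Kcnd pores, Kcnip4 fell in KO and had 21.2 RPKM in KO, 23.8 in Het and 27.5 in WT (the authors' deposited table gives adjusted p 0.0412 in KO and 0.409 in Het). Kcnip2 passed in neither (the authors' deposited table gives adjusted p 0.644 in KO and 0.578 in Het).

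The name pattern leaves out Kcne1l, an auxiliary subunit gene whose symbol ends in a letter, and its values are given after being seen. Kcne1l had 23.9 RPKM in KO, 23.5 in Het and 11.96 in WT, and it rose in both.

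Of 23 partner genes of Kv channels, 1 rose and 2 fell in KO, and 0 rose and 1 fell in Het. Beside this, 6.72% of all genes tested rose and 7.68% fell in KO, and 3.95% rose and 5.06% fell in Het. Cntnap1, which holds axonal Kv channels next to the node of Ranvier, fell in KO, at 20.8 RPKM against 29.9 in WT. Cntn2, of the same axonal complex, rose in KO, at 10.1 RPKM against 7.05 in WT. Adam11, which places Kv channels at presynaptic terminals of cerebellar interneurons, had 38.9 RPKM in KO, 38.1 in Het and 51.6 in WT (the authors' deposited table gives adjusted p 0.00928 in KO).

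In a list of 5, made of the hyperpolarization-activated channel genes and their trafficking subunit Pex5l, 1 rose and 1 fell in KO and 2 fell in Het. Pex5l had 38.9 RPKM in KO, 30.6 in Het and 55.6 in WT and fell in both. Hcn2 rose in KO, at 35.6 RPKM against 27.7 in WT (the authors' deposited table gives adjusted p 0.0303). Of 11 measured genes of the sodium-potassium pump and potassium transporters, 1 rose and 1 fell in KO, and 0 passed in Het. Beside both lists, 6.72% of all genes tested rose and 7.68% fell in KO, and 3.95% rose and 5.06% fell in Het. Slc12a2, which brings sodium, potassium and chloride into cells, fell in KO, at 9.15 RPKM against 12.8 in WT (the authors' deposited table gives adjusted p 0.00254). Slc12a4, a potassium-chloride exporter, rose in KO, at 10.8 RPKM against 8.31 in WT (the authors' deposited table gives adjusted p 0.0446).

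Of 27 voltage-gated sodium and calcium channel genes, 4 fell and 1 rose in KO and 5 fell and 1 rose in Het, with median log2 differences of -0.14 and -0.13. Over all genes tested, 7.68% fell and 6.72% rose in KO, and 5.06% fell and 3.95% rose in Het. This list shares Cacna1a to Cacna1e with the partners of calcium-activated channels, so the falls of Cacna1b and Cacna1e count in both lists. Cacnb2, a beta subunit of calcium channels, had 12.03 RPKM in KO, 12.8 in Het and 16.96 in WT (the authors' deposited table gives adjusted p 0.000987 in KO and 0.0213 in Het). Scn1a, the sodium channel of fast-spiking interneurons, had 10.02 RPKM in KO, 9.07 in Het and 12.7 in WT (the authors' deposited table gives adjusted p 0.0414 in KO and 0.00135 in Het). Scn4b, a sodium channel beta subunit that is also on the striatal marker list, was the gene that rose, with 27.9 RPKM in KO, 24.8 in Het and 2.81 in WT. The difference between these genes and potassium channel genes was not tested.

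KO and Het differed directly in 7 members, each lower in KO: Kcna1, Kcnf1, Kcnh1, Kcns2, Kcnv1, Kcnt2 and Kcnab1. Of these, 3 are silent Kv subunits. Kcnf1 had 7.60 RPKM in KO and 12.2 in Het, a log2 difference of -0.62 (the authors' deposited table gives adjusted p 0.00517). Kcnv1 had 7.28 RPKM in KO and 11.5 in Het, a log2 difference of -0.60 (the authors' deposited table gives adjusted p 0.00517). The difference was -0.52 for Kcnh1 and -0.44 for Kcna1 (the authors' deposited table gives adjusted p 0.00517 and 0.0123). The differences of Kcnab1, Kcnt2 and Kcns2 were -0.46, -0.44 and -0.44 (the authors' deposited table gives adjusted p 0.0294, 0.0458 and 0.0312).

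Against WT, oligodendrocyte and precursor markers numbered 4 higher and 0 lower of 15 in Het, and 2 higher and 3 lower in KO. Their summed level in the tables against WT was 1081 RPKM in KO, 1767 in Het and 1300 in WT. In the table of KO against Het, 8 of these 15 markers were lower in KO and 0 higher, with a summed level of 1085 RPKM in KO and 1779 in Het. Hippocampal markers numbered 3 lower and 1 higher of 12, with a summed level of 337 RPKM in KO and 386 in Het. Choroid plexus markers numbered 4 lower and 0 higher of 10 measured, with a summed level of 119 RPKM in KO and 347 in Het. No marker of these lists was listed at 0, and their part in the 7 differences was not tested. In each of these 7 genes the KO value was below both others. The 7 were chosen for a KO value below that of Het, so this order follows in part from the choice. The Het value was the highest of the 3 genotypes in Kcnf1, Kcnv1, Kcnab1, Kcnt2 and Kcns2, of which Kcnf1 alone passed in Het against WT.

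**Figure D5:**
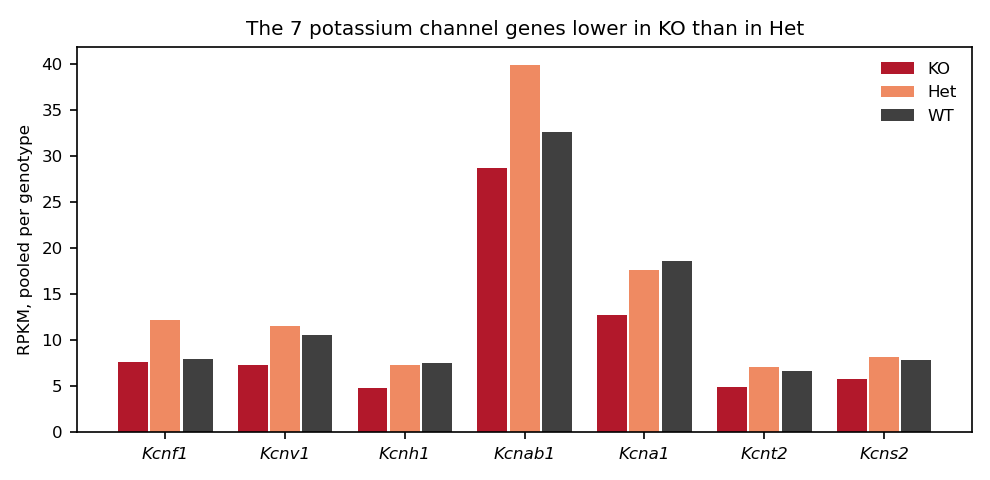
RPKM of the 7 members lower in KO than in Het, 1 pooled value for KO, Het and WT, from the tables against WT. The KO bar is the lowest of the 3 for each gene, from 4.82 RPKM for Kcnh1 to 28.7 for Kcnab1.

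Of the 44 members called in none of the 3 tables, all but Kcnj13 had log2 differences between -0.32 and 0.35 in KO, and between -0.38 and 0.33 in Het. The ends of these ranges were Kcng4 and Kcnh3 in KO, and Kcna3 and Kcna5 in Het. In KO against Het, the range without Kcnj13 ran from -0.36 for Kcng4 to 0.49 for Kcnh3. The 44 include 2 members that were untested against WT. For the others, a p that misses the threshold does not show equal levels between genotypes.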

How the data were processed

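RNA of 12 cortex libraries, 4 per genotype by their titles, was prepared with TruSeq RNA v2 and sequenced as paired ends on an Illumina HiSeq, per the labels' protocols. TopHat2 2.0.13, Cuffdiff 2.2.1, CASAVA 1.4 and build mm9 appear in the submitters' processing notes, with no order or role; the annotation was not given in the sources used here. Per the file headers, the authors deposited 3 pairwise tables that hold, for each gene, an RPKM value of each of 2 genotypes. The p-value and q-value columns are the authors' own, per the file headers, and genes with a p of 1 count here as untested. Depth per library is unknown.

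Here calls were read at q below 0.05 within each table across all genes, log2 differences used a pseudocount of 1, and no test was run, since 1 value per genotype holds no spread. The members, lists and naming rule were chosen with earlier results of these data known. Named were all members called in any table, the 2 highest uncalled members per channel group, 3 genes either side of 0.5 RPKM, up to 4 called partners per list and table, and marker genes of highest level. Outside this rule, Kcna2, Kcna3, Kcna5, Kcna6, Kcnb2, Kcng4, Kcnj9 and Kcnj11 were named after their values were seen, as were the genes so marked in the text. Some genes that the rule names are not reported here, though they stay in the counts. Kcnt genes stand with calcium-activated channels, being of the same family. Of the marker lists, those that lie beside a named result are given there. Endothelial markers numbered 1 higher and 3 lower of 12 in KO and 1 and 4 in Het, microglia 3 and 5 of 12 in KO and 3 and 4 in Het, meningeal 0 and 2 of 11 in KO and 0 and 5 in Het. Immature neuron and progenitor markers numbered 9 higher and 0 lower of 14 in KO and 10 and 0 in Het.

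3' UTRs, lengths and exon overlaps of at least 50 nt came from GENCODE M21 on GRCm38 by symbol, which covered all 74 members; overlaps touched 24 members. Of the members, 52 had a RefSeq promoter by symbol. Protein sequences planned for comparison were not analysed here. Work used Python 3.11.15, numpy 2.4.6, pandas 2.3.3 and matplotlib 3.10.9, and the counting of calls was tested on simulated data.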

Additional observations from a re-analysis of the deposited data

How the results depend on the processing

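Counts of called members were recomputed at adjusted p below 0.01, at minimum levels of 1 and 5 RPKM and none, with an absolute log2 difference of at least 0.5, and with 1 adjustment over the 3 tables. Members lower in KO against WT numbered 8 with the minimum difference, and those higher numbered 1 at adjusted p below 0.01, 3 at 5 RPKM and 2 with the minimum difference. Members lower in Het against WT numbered 4 with the minimum difference, and those higher numbered 2 at 5 RPKM. Members lower in KO against Het numbered 3 at adjusted p below 0.01 and 3 with the minimum difference. With 1 adjustment over the tables, 2 were higher there, Kcnab3 and Kcnt1, and Kcnip4, Kcnn2 and Kcnt2 no longer passed in KO against WT. All other counts lay within 1.5 times those reported. Medians moved by less than 0.1 with pseudocounts of 0.1 and 0.01, other minimum levels and recentring, except in KO against WT at 5 RPKM, where the median was -0.24.

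No paired analysis was possible because the tables hold 1 pooled value per genotype, and no result was recomputed without 1 library for the same reason. Pooled values limit every call to the authors' own test, and the depth behind low values is unknown.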
